A study of Homo sapiens with 4 samples.

Results

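The 10 genes described here are the switch that commits a cell to divide, read as a group in RNA of T24 cells. T24 is an established cell line from a human bladder carcinoma. They are MYC, the D-type cyclins CCND1, CCND2 and CCND3, the kinases CDK4 and CDK6, the inhibitors CDKN1B, CDKN2A and CDKN2B, and RB1. They were chosen by gene name, and all 10 names matched 1 row each among the 60623 genes of the deposited table. The study set 2 libraries from T24 cells that overexpress miR-146a-5p against 2 libraries from T24 cells given a scramble control, and its description names a mimic as the means. Both groups are the same line and carry no other treatment in the labels, which give no dose, time or culture for any library. The question of the comparison was which transcripts change when this microRNA is raised in bladder cancer cells.

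MYC is a transcription factor that binds DNA as a dimer with MAX and raises the transcription of genes for growth and cell cycle entry. D-type cyclins accumulate when growth factors signal and activate CDK4 and CDK6, which phosphorylate the retinoblastoma protein (the product of RB1) and so release E2F factors that switch on the genes for DNA synthesis. The INK4 inhibitors, from CDKN2A and CDKN2B, bind CDK4 and CDK6 and keep the cyclins out. p27, from CDKN1B, inhibits cyclin E bound to CDK2 and is held by D-type cyclin complexes. Loss of CDKN2A or RB1 and gain of CCND1 are among the common lesions of bladder cancer.

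A microRNA lowers a transcript that pairs with its seed, and the mature sequence is shown because it sets which of the 10 could be direct targets. The sequence is from RefSeq (GRCh38.p14, chromosome 5, plus strand, 160485372 to 160485393), with seed bases 2 to 8 in capitals. Among the longest annotated 3' UTRs of the 10 genes, CDK6 alone held a match, 1 heptamer pairing with bases 2 to 8 and not followed by A. It lies in the 3' UTR of CDK6 on chromosome 7, minus strand, from 92614117 to 92614123 (GRCh38). It is shown with the first of 2 8-mers of IRAK1 (chromosome X, minus strand, 154011812 to 154011819), a textbook target, and capitals mark the match.
hsa-miR-146a-5p: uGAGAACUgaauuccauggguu
CDK6 site: gtttggagagtAGTTCTCtctaactagag
IRAK1 site: ccggaagtcaaAGTTCTCAtggtcagaagt

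The letters searched were AGTTCTCA, AGTTCTC and GTTCTCA on the transcript strand, the first containing both of the others, and 21.4% of the 12386 tested genes with a 3' UTR held at least 1 of them. The 3' UTR of CDK6 is 10219 bases long, against a median of 1386 bases over those genes. MYC, CCND1, CCND2, CCND3, CDK4, CDKN1B, CDKN2A, CDKN2B and RB1 held 0 matches in theirs, which says only that these letters are absent there.

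Each library held between 20290055 and 22774090 estimated counts, and 14810 genes, among them 9 of the 10, passed the filter for testing. Levels below are given as CPM or as TPM. CPM is estimated counts over the library total with TMM scaling, for setting libraries side by side. TPM is the authors' value, for setting genes side by side. TPM did not follow from the estimated counts and the gene lengths in their table. From miR-146a-5p replicate 1 to 2 the count of CDKN2B rose (108 to 115) while its TPM fell (1.96 to 1.93). For CDKN1B the count fell (1186 to 1125) while its TPM rose (30.4 to 31.0). Scramble replicate 2 stood apart from the other 3 libraries. The scramble pair differed more than 2-fold in 23.5% of tested genes, the miR-146a-5p pair in 2.71%. The difference ran with base composition: the median log2 CPM of scramble replicate 2 minus scramble replicate 1 was -1.76 in the GC-poorest 10% of genes and 0.57 in the GC-richest 10%. The labels do not say if replicates are separate cultures. Each p sets the group difference against the scatter of these libraries only, which may be technical. IRAK1 had 109 and 108 CPM in the miR-146a-5p libraries, against 499 and 717 CPM in the scramble libraries (DESeq2 adjusted p = 5.03e-09, edgeR adjusted p = 0.728). Keratins KRT7, KRT8 and KRT18 were abundant, at 579 CPM or more in every library, while CDH1, KRT5 and UPK2 were at or near 0. EPCAM and GATA3 were also low, at most 1.49 and 1.22 CPM. KRT19 had 14.4 to 15.9 CPM in the miR-146a-5p libraries, against 31.9 to 42.6 CPM in the scramble libraries. The 13 markers of fibroblasts, leukocytes and endothelium were all below the filter, each list summing to under 1 CPM in every library. In RNA of a whole culture, fewer cells in a state and less RNA per cell cannot be told apart.

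None of the 10 genes was called at an adjusted p under 0.05 by any test on all 4 libraries. This does not show that they were unchanged, since edgeR left IRAK1 uncalled as well. edgeR's quasi-likelihood test put 0 of the 9 tested genes past an adjusted p of 0.05, with 0 at an unadjusted p under 0.05, against 0% of all 14810 genes past the threshold and 3.71% at an unadjusted p under 0.05. DESeq2 called 0 of them, against 0.324% of the genes it tested, and limma-voom called 0, against 0% of all genes. Their estimated fold changes were small, with an SE of up to 1.03 in log2 (CDK6). The log2 fold change was negative in 7 of the 9, against 50.1% of all tested genes, with a median of -0.19 over the 9 and of -0.00144 over all tested genes. The largest in size were those of CDK4, at -0.48, and RB1, at 0.45. By CPM both miR-146a-5p libraries lay below both scramble libraries for CCND1 and CDK4, 2 of 9, against 17.9% of all tested genes. They lay above both for CDKN1B, 1 of 9, against 18.0%. For CCND3, CDK6 and RB1, 3 of 9, they lay between the scramble libraries, against 38.9%.

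**Figure D1:**
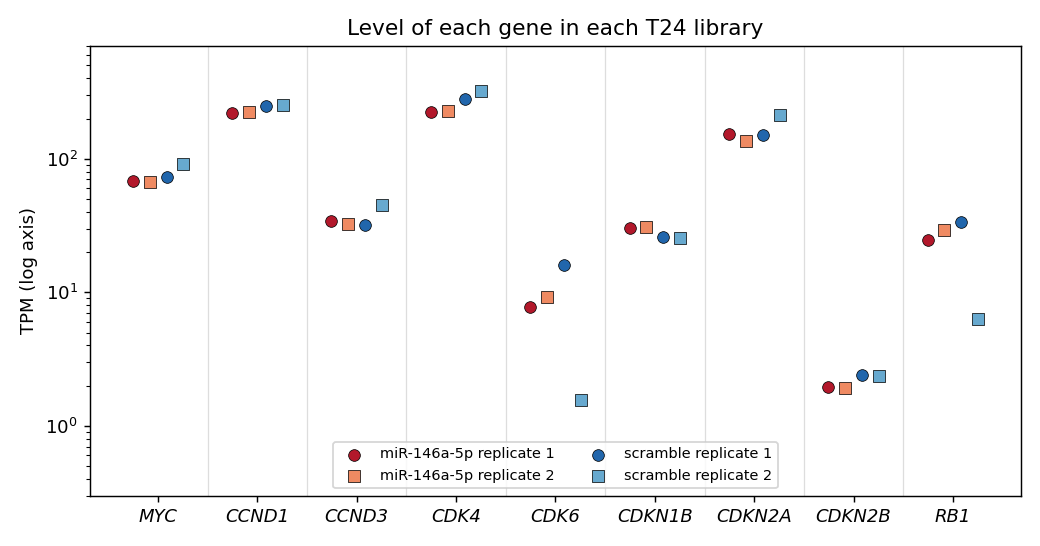
TPM on a log axis of the 9 tested genes in each of the 4 libraries, with circles for replicate 1 and squares for replicate 2. CCND1, CDK4 and CDKN2A were at 137 TPM or more in every library, and scramble replicate 2 was the lowest library for CDK6 (1.56 TPM) and RB1 (6.35 TPM). CCND2, below 0.1 TPM in every library, is not drawn.

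By TPM, CDK4, CCND1 and CDKN2A were the most abundant, with MYC next. CCND3, CDKN1B and RB1 followed at similar levels, then CDK6, CDKN2B and, at the floor, CCND2. Within the miR-146a-5p pair CDK4 (226 and 227 TPM) and CCND1 (221 and 225 TPM) were side by side, and CCND3 (34.3 and 32.4 TPM) stood close to CDKN1B (30.4 and 31.0 TPM) and RB1 (24.6 and 29.1 TPM). Scramble replicate 2 broke the order, since RB1 had 6.35 TPM there against 33.6 TPM in scramble replicate 1.

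MYC had 2198 and 1967 estimated counts in the miR-146a-5p libraries, against 2248 and 3324 in the scramble libraries. These were 103 and 96.3 CPM in the miR-146a-5p libraries, against 100.5 and 145.99 CPM in the scramble libraries. The miR-146a-5p pair and scramble replicate 1 thus held nearly the same level, and scramble replicate 2 alone was higher. The log2 fold change was -0.31 ± 0.253 (SE, edgeR adjusted p = 0.97). Set against each scramble library by itself, the mean log2 CPM differed by -0.02 (replicate 1) and -0.55 (replicate 2). Without scramble replicate 1 edgeR called it lower (-0.55, adjusted p = 1.27e-10), in a fit that called 54.9% of the 15333 genes it tested. In TPM, unlike in CPM, the groups did not overlap. MYC had 68.2 and 66.6 TPM in the miR-146a-5p libraries, against 72.7 and 91.2 TPM in the scramble libraries.

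Among the cyclins, CCND1, the D-type cyclin most often raised in carcinomas, was the most abundant and nearly level across the study. It had 750.0 and 735 CPM in the miR-146a-5p libraries, against 794 and 896 CPM in the scramble libraries. Both miR-146a-5p libraries were lower than both scramble libraries, by a small margin (log2 fold change -0.19 ± 0.141 SE, edgeR adjusted p = 0.97). The log2 fold change of CCND1 was -0.27 without scramble replicate 1 and -0.08 without scramble replicate 2. CCND3, a close relative with overlapping function, had 47.7 and 45.5 CPM in the miR-146a-5p libraries, against 44.2 and 71.2 CPM in the scramble libraries. Its groups overlapped, with scramble replicate 2 the high library and the other 3 close together (log2 fold change -0.31 ± 0.3 SE, edgeR adjusted p = 0.97). It was called lower without scramble replicate 1 (-0.61, adjusted p = 1.16e-09) and had the other sign without scramble replicate 2 (0.09, adjusted p = 0.606).

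CCND2, the remaining D-type cyclin and a known MYC target, was close to silent. It had 8.18 and 4.12 estimated counts in the miR-146a-5p libraries, against 0 and 1.01 in the scramble libraries. These counts were under the filter for the main test, and the TPM was at most 0.07. Summed over the rounded counts the ratio was 12 to 1, or 12.9-fold after scaling for depth, with an exact (Clopper-Pearson) 95% interval of 1.92 to 553 that covers counting error only. The authors' deposited table lists it as not significant, with a p of 0.095.

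**Figure D2:**
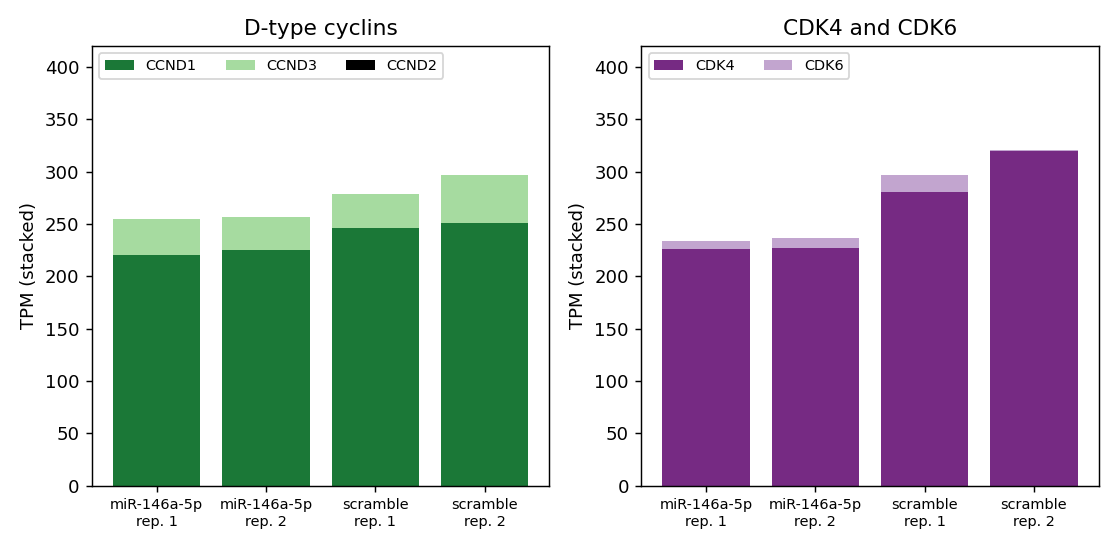
TPM of the D-type cyclins (left) and of CDK4 and CDK6 (right), stacked per library from 0. CCND1 supplied at least 84.7% of the D-type cyclin TPM and CDK4 at least 94.6% of the kinase TPM in every library.

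Together the D-type cyclins came to 255 and 257 TPM in the miR-146a-5p libraries, against 279 and 297 TPM in the scramble libraries. CCND1 made up 86.5% and 87.4% of that sum in the miR-146a-5p libraries, against 88.5% and 84.7% in the scramble libraries, so its share overlapped between groups. CCND1 was thus the main D-type cyclin transcript under both conditions.

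CDK4 had the smallest edgeR p of the 9 tested genes. It had 4917 and 4302 estimated counts in the miR-146a-5p libraries, against 5952 and 7969.7 in the scramble libraries. In CPM these were 229.6 and 211 in the miR-146a-5p libraries, against 266 and 350.0 in the scramble libraries. Both miR-146a-5p libraries were below both scramble libraries, and the scramble libraries differed from each other by 0.4 in log2 CPM. The log2 fold change was -0.48 ± 0.205 (SE), with an unadjusted p of 0.0734 and an edgeR adjusted p of 0.97. With 1 scramble library left, whose scatter is then taken from the other group, edgeR called CDK4 lower against scramble replicate 1 (log2 fold change -0.26, adjusted p = 0.0104) and against scramble replicate 2 (-0.67, adjusted p = 3.5e-16). Such calls were common, since these fits called 21.7% of 15373 genes without scramble replicate 2 and 54.9% of 15333 genes without scramble replicate 1. CDK4 was the 1 gene of the 9 called in the same direction by both fits, against 2.74% of all genes called lower by both and 4.07% called higher by both. With offsets for GC content and length, chosen after seeing the data, its log2 fold change was -0.41 ± 0.0872 (SE, adjusted p = 0.332).

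CDK4 is a known direct target of MYC, and its promoter is shown because it carries the hexamer CACGTG, the E-box that MYC and MAX dimers bind. The window from 250 bases before to 50 after the start (RefSeq, GRCh38.p14, minus strand, chromosome 12, 57752261 to 57752560) holds 3 copies, in capitals, beginning 216, 196 and 101 bases upstream of the start.
CDK4 promoter: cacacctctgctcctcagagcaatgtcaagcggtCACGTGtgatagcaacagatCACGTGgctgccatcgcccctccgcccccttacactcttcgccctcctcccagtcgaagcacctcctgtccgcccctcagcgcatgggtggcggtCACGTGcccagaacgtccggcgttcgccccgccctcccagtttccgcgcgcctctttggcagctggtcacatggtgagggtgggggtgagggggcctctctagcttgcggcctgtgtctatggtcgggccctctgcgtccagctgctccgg

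The hexamer reads the same on both strands, and 7.26% of the 35116 promoter windows in the table held at least 1, with 0.094% holding 3 or more. Of the 11 windows of the 7 genes that have an entry there (CCND3, CDK4, CDK6, CDKN1B, CDKN2A, CDKN2B and RB1), 2 held the hexamer, those being CDK4 and 1 of the windows of CDK6. An E2F motif written as TTTNGCGC, on either strand, was in 0 of the 11 and in 1.79% of all windows. Other forms of the E2F motif were not searched. The windows were not checked for covering each gene's main start. The only window of RB1 (chromosome 13, 48476200 to 48476499) has 38.3% GC, so the absence of a match there is not a statement about its main promoter. These are matches of letters, and binding was not measured.

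CDK6, the partner kinase with the same cyclins, gave the widest spread of the 10. It had 1487 and 1615 estimated counts in the miR-146a-5p libraries, against 3139 and 338 in the scramble libraries. In CPM the miR-146a-5p libraries held 69.4 and 79, between the 140.3 and 14.8 of the scramble libraries. The scramble libraries differed 9.45-fold, and the miR-146a-5p libraries 1.14-fold. The log2 fold change over all 4 was -0.06 ± 1.03 (SE, edgeR adjusted p = 0.994). It was -0.91 without scramble replicate 2 (adjusted p = 1.89e-24) and 2.32 without scramble replicate 1 (adjusted p = 3.16e-84), so the direction depended on which scramble library was used, also for the 1 gene of the group with a seed match.

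RB1, whose product is the substrate of both kinases, was split in the same way. It had 2027 and 2159 estimated counts in the miR-146a-5p libraries, against 2694 and 598 in the scramble libraries, or 94.7 and 106 CPM in the miR-146a-5p libraries, against 120.4 and 26.3 CPM in the scramble libraries. The miR-146a-5p libraries again lay between the scramble libraries. CDK6 and RB1, 2 of the 9, differed more than 4-fold between the scramble libraries, against 9.26% of all tested genes. The log2 fold change was 0.45 ± 0.745 (SE, edgeR adjusted p = 0.97), and -0.25 without scramble replicate 2 (adjusted p = 0.0178) and 1.93 without scramble replicate 1 (adjusted p = 2.38e-76).

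**Figure D3:**
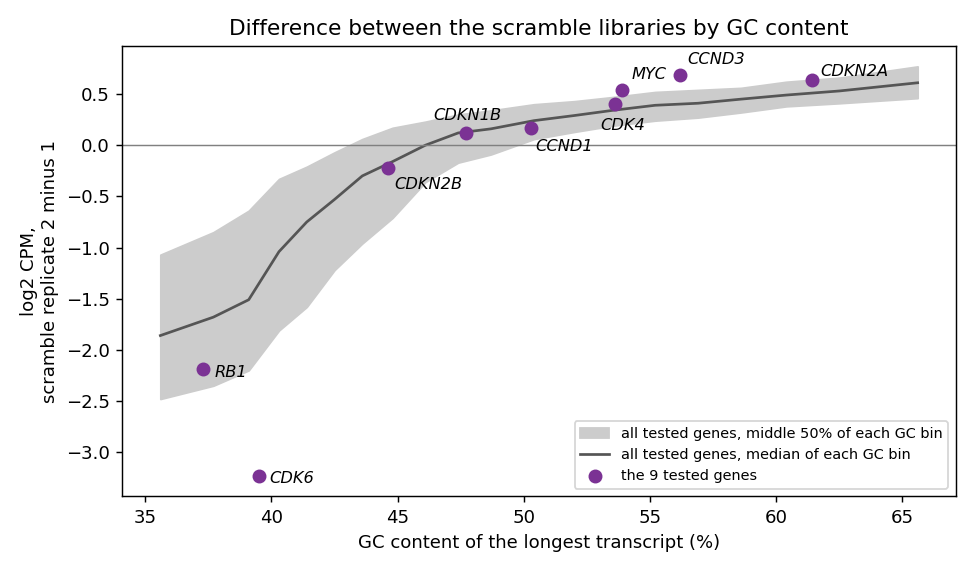
Difference in log2 CPM, scramble replicate 2 minus replicate 1, against the GC content of each gene's longest transcript, with points for the 9 tested genes. The grey line and band are the median and middle 50% of all tested genes in 20 GC bins. RB1 (-2.19) and CDK6 (-3.23) are at the GC-poor end, and the 7 others lie between -0.22 and 0.69.

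CDK6 and RB1 were the 2 genes of the group with the lowest GC content, 39.5% and 37.3% of the longest transcript, against a median of 48% over tested genes. CDK6 also has a transcript of 11612 bases, and 2.13% of tested genes have a longer one. Between scramble replicates 2 and 1 the log2 difference was -3.23 for CDK6 and -2.19 for RB1. A larger drop was seen in 1.18% of tested genes for CDK6 and in 7.23% for RB1. The 4 genes with the highest GC content, CDKN2A (61.4%), CCND3 (56.2%), MYC (53.9%) and CDK4 (53.6%), were all higher in scramble replicate 2, by 0.64, 0.69, 0.54 and 0.4. With the offsets for GC content and length the log2 fold change of MYC was -0.22, of CDKN2A -0.21, of CCND3 -0.18 and of RB1 0.18, with no call. The part of GC content or of scramble replicate 2 in any single difference was not tested.

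The balance between the kinases moved with the same library. CDK4 made up 96.7% and 96.1% of the summed CDK4 and CDK6 TPM in the miR-146a-5p libraries, against 94.6% and 99.5% in the scramble libraries. CDK4 outnumbered CDK6 by 29.1 and 24.7 to 1 in the miR-146a-5p libraries, against 17.6 and 205 to 1 in the scramble libraries. The ratio of D-type cyclin TPM to kinase TPM was 1.09 and 1.09 in the miR-146a-5p libraries, against 0.939 and 0.925 in the scramble libraries. The groups did not overlap in that ratio, and the smallest two-sided exact permutation p that 2 libraries against 2 allow is 0.333.

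**Figure D4:**
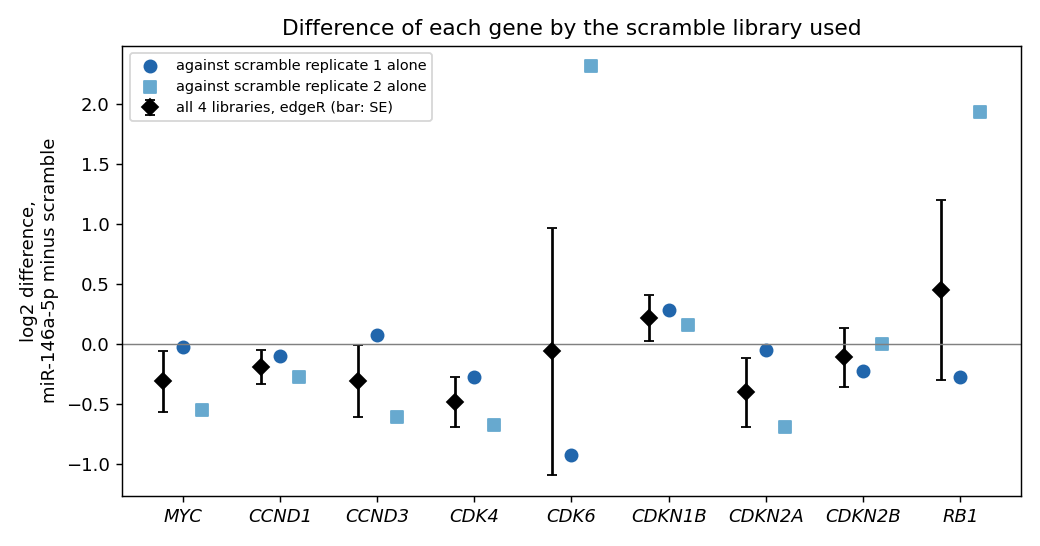
Log2 difference of the 9 tested genes, miR-146a-5p minus scramble, over all 4 libraries (diamonds, bars are SE from edgeR) and as mean log2 CPM against each scramble library alone (circles and squares). CCND1 and CDK4 are negative and CDKN1B positive against both scramble libraries, while CCND3, CDK6 and RB1 change sign. MYC and CDKN2A are negative against scramble replicate 2 and nearly level with scramble replicate 1 (-0.02 and -0.05).

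Among the inhibitors, CDKN2A was highly expressed, at 153 and 137 TPM in the miR-146a-5p libraries against 152 and 213 TPM in the scramble libraries. The gene encodes both p16, the INK4 inhibitor, and ARF, which stabilises p53, and counts per gene do not separate them. In CPM it had 92.8 and 83.5 in the miR-146a-5p libraries, against 91 and 142 in the scramble libraries. The groups overlapped, with scramble replicate 2 alone high (log2 fold change -0.4 ± 0.285 SE, edgeR adjusted p = 0.97). It was called lower without scramble replicate 1 (-0.69, adjusted p = 8.06e-16) and not without scramble replicate 2 (-0.03). CDKN2B, its neighbour, encodes p15, which TGF-beta induces in epithelial cells. It had 5.04 and 5.63 CPM in the miR-146a-5p libraries, against 6.21 and 5.31 CPM in the scramble libraries, and did not separate the groups (log2 fold change -0.11 ± 0.248 SE, edgeR adjusted p = 0.972). In TPM CDKN2B did separate them, at 1.96 and 1.93 in the miR-146a-5p libraries against 2.42 and 2.36 in the scramble libraries. Its estimated counts were 108 and 115 in the miR-146a-5p libraries, against 139 and 121 in the scramble libraries. The miR-146a-5p library with the higher CPM had the lower TPM, so the separation depended on the scale. In TPM, MYC, CCND1, CDK4 and CDKN2B, 4 of 9 genes, lay below both scramble libraries, against 19.1% of all tested genes. Of these, MYC and CDKN2B overlapped by CPM. CDKN1B was the 1 gene of 9 above both in TPM, against 18.8%. CDKN2A made up at least 98.4% of the summed TPM of CDKN2A and CDKN2B in every library. That share counts p16 and ARF transcripts together, so it does not give the level of p16.

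CDKN1B had 1186 and 1125 estimated counts in the miR-146a-5p libraries, against 1014 and 1124 in the scramble libraries, or 55.4 and 55.1 CPM in the miR-146a-5p libraries, against 45.3 and 49.4 CPM in the scramble libraries. It was the 1 tested gene of the group above both scramble libraries, and the 4 libraries were close to one another (log2 fold change 0.22 ± 0.19 SE, edgeR adjusted p = 0.97). Without scramble replicate 2 its log2 fold change was 0.3, and without scramble replicate 1 it was 0.16. D-type cyclin TPM exceeded that of CDKN1B by 8.4 and 8.3 to 1 in the miR-146a-5p libraries, against 10.7 and 11.7 to 1 in the scramble libraries.

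The genes around this switch were read from 7 lists with 70 genes, of which 68 were tested. edgeR called 0 of them and DESeq2 called 0, and 4 had an unadjusted edgeR p under 0.05 (CDKN1C, CCNE1, MXI1 and ODC1). Of the genes named below, 7 were called in the same direction when either scramble library was left out: CCNE1, MXI1, MNAT1 and AURKA higher, and ODC1, BOP1 and CDKN1C lower. Of all genes 4.07% were called higher by both fits and 2.74% lower by both, but the genes named below were picked for their small p, so the 7 are not set against those shares. The log2 fold change of CCNE1 was then 0.93 to 1.22, of MXI1 0.85 to 0.88 and of ODC1 -1.02 to -0.62. Of all tested genes 50.1% were negative. The lists were chosen with earlier results of these data known. The shares over all genes given beside a list's counts are therefore a description and not a fair background. All adjusted p-values in the next paragraphs are from edgeR over 14810 genes.

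The E-type and A-type cyclins, CDK2 and its activators act at the step after RB1 phosphorylation. The 8 tested genes of this list, 7 of them positive, had a median log2 fold change of 0.29. In 6 of the 8 the miR-146a-5p pair exceeded both scramble libraries, against 18.0% of all tested genes, and in 1 it was under both, against 17.9%. The margin over scramble replicate 1 was small for some of them. In mean log2 CPM, CCNA2 differed by 0.04 from scramble replicate 1 and by 0.6 from scramble replicate 2. The same differences were 0.19 and 2.47 for CCNE2, and 1.19 and 0.91 for CCNE1. CCNE1, cyclin E1, had 13.8 and 15.6 CPM in the miR-146a-5p libraries, against 6.35 and 7.73 CPM in the scramble libraries. All miR-146a-5p values were well above the scramble values, and the gene did not pass (log2 fold change 1.06 ± 0.24 SE, unadjusted p = 0.01, adjusted p = 0.97, DESeq2 adjusted p = 0.617). CCNA1, cyclin A1, had 14.2 and 12.5 CPM in the miR-146a-5p libraries, against 8.49 and 10.8 CPM in the scramble libraries. CKS1B, a small subunit that helps degrade p27, had 185 and 169 CPM in the miR-146a-5p libraries, against 132 and 158 CPM in the scramble libraries.

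The other INK4 and CIP/KIP inhibitors had a median of 0.3 over 4 tested genes, 3 of them positive, with 2 of 4 above both scramble libraries, against 18.0% of all tested genes, and 1 below both, against 17.9%. CDKN1C, which encodes the imprinted inhibitor p57, was the exception, at 2.52 and 2.2 CPM in the miR-146a-5p libraries against 4.47 and 8.83 CPM in the scramble libraries (log2 fold change -1.49 ± 0.428 SE, unadjusted p = 0.0229, adjusted p = 0.97). CDKN2D, which encodes p19, had 6.54 and 8.86 CPM in the miR-146a-5p libraries, against 5.32 and 6.63 CPM in the scramble libraries. CDKN1A, the p53 target p21, had 23.7 and 22.1 CPM in the miR-146a-5p libraries, against 14.7 and 22 CPM in the scramble libraries, where replicate 2 reached the level of the miR-146a-5p pair.

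Of the growth genes that MYC is known to induce, 15 were tested, with a median of -0.15, and 12 were negative, against 50.1% of all tested genes. Of the 15, 4 lay below both scramble libraries, against 17.9% of all tested genes, and 0 above both, against 18.0%. Many of the signs depended on the scramble library used. In mean log2 CPM, NOP56, FBL, PPAN, SRM and MRTO4 were at 0.01 to 0.12 against scramble replicate 1 and at -0.62 to -0.29 against scramble replicate 2. NCL, NPM1, NOP58, HSPD1 and WDR12 turned the other way, at -0.48 to -0.03 and at 0.03 to 1.39. ODC1, the first enzyme of polyamine synthesis, had 130.3 and 124 CPM in the miR-146a-5p libraries, against 197 and 259 CPM in the scramble libraries. The groups were apart, and the gene did not pass (log2 fold change -0.84 ± 0.21 SE, unadjusted p = 0.0142, adjusted p = 0.97). BOP1, a ribosome assembly factor, had 121 and 115 CPM in the miR-146a-5p libraries, against 147 and 238 CPM in the scramble libraries. CAD, the first enzyme of pyrimidine synthesis, had 96.4 and 89.8 CPM in the miR-146a-5p libraries, against 107 and 152 CPM in the scramble libraries. For BOP1 and CAD scramble replicate 2 was far above scramble replicate 1.

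MYC's dimer partners and antagonists gave a median of -0.05 over 9 tested genes, 4 positive and 5 negative. MYCN had 0 CPM in every library and MYCL at most 0.134 CPM, so MYC was the only paralog above the filter. MXI1, which competes with MYC for MAX, had 11.8 and 13.4 CPM in the miR-146a-5p libraries, against 7.02 and 6.81 CPM in the scramble libraries (log2 fold change 0.86 ± 0.222 SE, unadjusted p = 0.0159, adjusted p = 0.97). Both scramble libraries gave the same level here. MNT, another antagonist, had 17.8 and 19.1 CPM in the miR-146a-5p libraries, against 22.5 and 28.1 CPM in the scramble libraries. MXD1 had 5.04 and 4.8 CPM in the miR-146a-5p libraries, against 4.38 and 3.82 CPM in the scramble libraries. The sign of its difference turned with the GC and length offsets (-0.03). In TPM its order was also reversed, at 1.53 and 1.53 in the miR-146a-5p libraries against 2.27 and 1.68 in the scramble libraries.

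**Figure D5:**
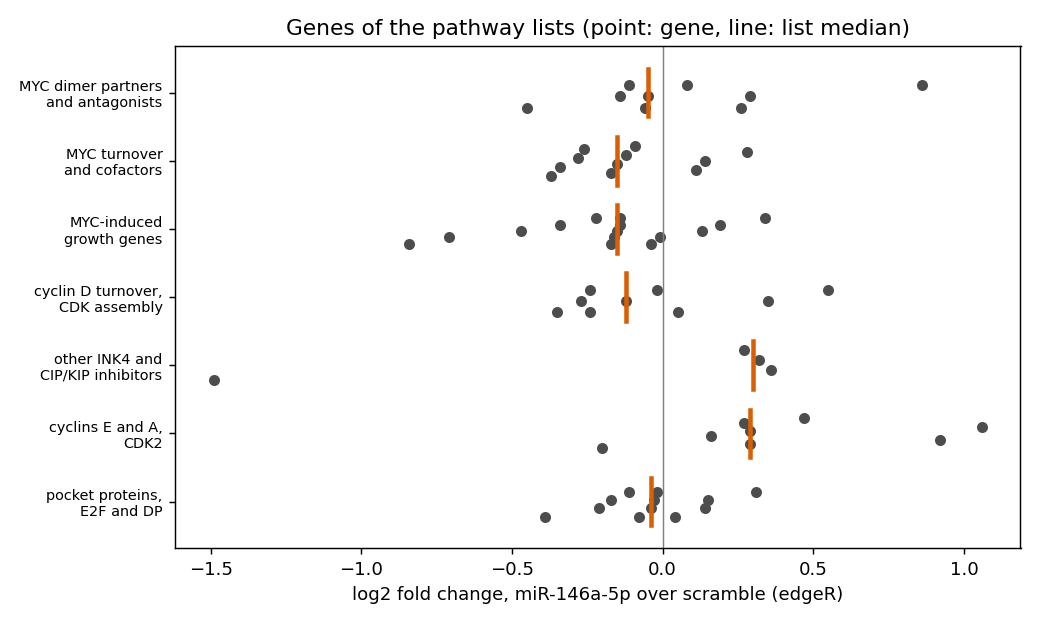
Log2 fold change from edgeR, miR-146a-5p over scramble, of the 68 tested genes in 7 lists (points) with each list's median (line). CDKN1C (-1.49) and CCNE1 (1.06) are the outermost points, and no gene passed an adjusted p of 0.05.

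The list on MYC turnover and cofactors had 11 tested genes, 3 positive and 8 negative, and a median of -0.15. AURKA, a mitotic kinase that shields MYC proteins from degradation, had 287 and 286 CPM in the miR-146a-5p libraries, against 224 and 246 CPM in the scramble libraries. TRRAP, a scaffold of histone acetyltransferases that MYC recruits, had 139.9 and 146.3 CPM in the miR-146a-5p libraries, against 163 and 184 CPM in the scramble libraries. PIM1, a kinase that cooperates with MYC, had 8.08 and 7.83 CPM in the miR-146a-5p libraries, against 8.76 and 11.9 CPM in the scramble libraries. The 3 had adjusted p-values of 0.97.

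The list on D-type cyclin turnover and kinase assembly had a median of -0.12 over 9 tested genes, 3 positive and 6 negative. MNAT1, a subunit of the CDK-activating kinase, had 50.8 and 56.1 CPM in the miR-146a-5p libraries, against 39.2 and 33.7 CPM in the scramble libraries (log2 fold change 0.55 ± 0.206 SE, adjusted p = 0.97), and its sign turned with the GC and length offsets (-0.2). FBXO31, a ubiquitin ligase subunit that recognises cyclin D1, had 25.6 and 24 CPM in the miR-146a-5p libraries, against 26.2 and 37.1 CPM in the scramble libraries. CDC37, the chaperone that folds CDK4, had 174 and 157 CPM in the miR-146a-5p libraries, against 159.7 and 239 CPM in the scramble libraries. The pocket proteins and E2F factors had a median of -0.04 over 12 tested genes, 4 positive and 8 negative. Their 3 smallest p-values were those of E2F4 (86.2 and 79.3 CPM in the miR-146a-5p libraries, against 92.4 and 125 CPM in the scramble libraries), TFDP1 (172 and 176 CPM in the miR-146a-5p libraries, against 186 and 216 CPM in the scramble libraries) and RBL2 (87 and 86.3 CPM in the miR-146a-5p libraries, against 83.7 and 55.7 CPM in the scramble libraries). None of the 3 passed.

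Likeness of pattern over the 4 libraries was measured as the Euclidean distance between log2 CPM values centred on each gene's mean, among genes with a mean of at least 1 CPM. Nearest to MYC were CBR1, a carbonyl reductase, at 0.00817, APEX2, a DNA repair nuclease, at 0.0116, and SCAP, an escort of sterol-regulated factors, at 0.0177. All 3 share with MYC a high value in scramble replicate 2 and 3 similar values elsewhere. Of the other members, CCND3 ranked 474 and CDKN2A 611 of 13264 genes in closeness to MYC. Nearest to CCND1 were ALG2, NSD2 and CTPS1, at 0.0124 to 0.0208. Nearest to CDK6 were NBEA at 0.0292, SMG1 at 0.118 and QSER1 at 0.118, which were likewise lowest in scramble replicate 2, and RB1 ranked 642. With 4 libraries this is a description of shape only.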

How the data were processed

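RNA of 4 T24 libraries was measured. Per the labels' protocols, a Trizol extraction was followed by TruSeq library preparation. Per the submitters' processing notes, cutadapt 1.9.1, HISAT2 2.0.1, HTSeq 0.6.1, DESeq2 and hg19 were used, with no role given. The authors deposited estimated counts per gene (34.3% not whole among genes above 0 in all libraries, tolerance 1e-06), TPM per library and as group means, a fold change as a ratio, its log2, and p-values from their comparison. Their table lists 34811 genes as not tested. CCND1, CDK4, CDKN2A and CCND2 have fractional counts, which counting whole reads does not give, and the tool behind them and the annotation release are not given in the sources used here.

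Estimated counts were rounded and tested with edgeR 4.0.16 in R 4.3.3 (quasi-likelihood, TMM, filterByExpr with a minimum count of 10 and total of 15, group as the only term, two-sided, Benjamini-Hochberg over 14810 genes, threshold 0.05). DESeq2 1.42.0 and limma 3.58.1 (voom) were alternatives. Standard errors came from the F statistic, and log2 CPM used a prior count of 2. Splines for GC and length offsets had 5 degrees of freedom each. Genes were matched to GENCODE 29 (GRCh38), where 58457 had a transcript, for length, GC content and 3' UTRs. The microRNA and promoters are from RefSeq (GRCh38.p14). The fits were tested on simulated data. The members and lists were chosen with earlier results of these data known. The text names all members, the 3 genes with the smallest p in each list, and the 3 nearest genes to MYC, CCND1 and CDK6. Intervals cover counting error only. Replicate numbers come from the labels and were not used as a block.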

Additional observations from a re-analysis of the deposited data

How the results depend on the processing

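On all 4 libraries edgeR called 0 genes and 0 members with RLE size factors, upper-quartile factors, no filter on low counts, a mean of at least 1 CPM, or GC and length offsets (the last chosen after seeing the data), and limma-voom called 0 of both. DESeq2 called 52 genes and 0 members. With the replicate block 5 genes and 0 members were called. With a crossed replicate block, tried after seeing the data because the deviations of same-numbered libraries correlated at -0.145 across genes, 0 genes were called. Leaving out 1 library gave between 8 and 8421 genes and between 0 and 7 members. The 7 of 9 were found without scramble replicate 1, where 54.9% of 15333 genes were called (MYC, CCND1, CCND3, CDK4 and CDKN2A lower, CDK6 and RB1 higher), and without scramble replicate 2, where 21.7% of 15373 genes were called, there were 4 of 9 (CDK4, CDK6 and RB1 lower, CDKN1B higher). Those fits take the scatter of the lone scramble library from the other group. The sign of CDK6 turned with limma-voom (0.7), with the replicate block (0.69) and when a library was left out (-0.91 to 2.32). Signs also turned on leaving out a library for RB1 (-0.25 to 1.93), CCND3 (-0.61 to 0.09), CDKN2B (-0.21 to 0.01) and CDC37 (-0.53 to 0.06), and with GC and length offsets for MXD1 (-0.03) and MNAT1 (-0.2). The cause was not tested. Among the tested members, the only genes compared in this way, TPM in place of CPM moved CDKN2B to a log2 ratio of -0.3.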

Other observations

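Transcripts that border the members were read after the other values were seen. PVT1, the noncoding RNA beside MYC, had 22.8 and 23 CPM in the miR-146a-5p libraries, against 20.5 and 23.6 CPM in the scramble libraries (edgeR log2 fold change 0.05 ± 0.205 SE). In TPM PVT1 was lower in both miR-146a-5p libraries (26.9 and 30.8) than in both scramble libraries (45.6 and 35.9). MTAP, which lies beside CDKN2A and is often lost with it in tumours, had 63.3 and 66.8 CPM in the miR-146a-5p libraries, against 99.3 and 59.5 CPM in the scramble libraries. CDKN2B-AS1, the antisense transcript of that locus, had 5.18 and 5.58 CPM in the miR-146a-5p libraries, against 7.15 and 4.17 CPM in the scramble libraries. Transcripts of CDKN2A, CDKN2B, CDKN2B-AS1 and MTAP were thus present in every library. TSPAN31, whose gene lies next to CDK4, had 21.3 and 17.6 CPM in the miR-146a-5p libraries, against 13 and 15.5 CPM in the scramble libraries. By CPM this was the opposite order to CDK4 (log2 fold change 0.45 ± 0.236 SE, edgeR adjusted p = 0.97). In TPM the groups overlapped for TSPAN31, at 25.6 and 18.8 in the miR-146a-5p libraries against 13.5 and 19.1 in the scramble libraries. FGF3, FGF4 and FGF19, neighbours of CCND1, and CCND2-AS1 had 0 counts in every library.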
